A study of Mus musculus with 2 samples.

Results

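The genes described here are 36 ribosome biogenesis and nucleolar genes, chosen by symbol, of 27998 genes in the deposited gene list, and each of the 36 was found there. They were followed in sorted cells of Foxp3Cre-YFP mice on the C57BL/6 background, aged 5 to 8 weeks, in which the locus of Foxp3, the transcription factor of regulatory T cells, drives Cre recombinase and a yellow fluorescent protein. The groups were B16 tumour at day 14, a transplanted mouse melanoma, and lymph node of unchallenged mice, with 1 library each. All mice carried the Foxp3Cre-YFP allele, and the labels give neither the sorting gate nor the number of mice behind each library. The series title places the data in a study of regulatory T cells and T cell exhaustion in tumours. Droplet libraries of the 10x Chromium 3′ kind count each captured transcript through a unique molecular identifier (UMI). With 1 library per tissue no difference could be tested: intervals are 95% intervals of counting error only, and tissue, library and preparation cannot be told apart.

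Ribosomes are assembled in the nucleolus, where RNA polymerase I transcribes the precursor of the large ribosomal RNAs. Box C/D and box H/ACA ribonucleoproteins, built around small nucleolar RNAs, direct its methylation and pseudouridylation, and assembly factors then cut, fold and combine it with ribosomal proteins into the small and large subunits. T cells raise this pathway when they are activated and grow, and many of its genes are known targets of the transcription factor Myc, as are Odc1 and Srm, which make the polyamines putrescine and spermidine.

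The rule of the series left 1457 tumour cells, of at least 3834 UMIs, and 2202 lymph node cells, of at least 1811 UMIs, with 16669263 and 10681101 UMIs in total. Median totals were 8766 UMIs per tumour cell and 4100 UMIs per lymph node cell, and the libraries shared 1 cell barcode. At 1811 UMIs per cell, Cd3e of the T cell receptor complex had a UMI in 64.9% of the cells from tumour and 62.2% of those from lymph node. In the same order, Ikzf2 of regulatory T cells had one in 81.9% and 55.7%, and Foxp3 in 4.26% and 4.63%. Cd8a, which defines cytotoxic T cells, had no UMI in either library, and neither had the 4 neutrophil and mast cell markers. The other CD8 T cell marker, Cd8b1, was counted at 19.5 CPM in tumour and 17.6 CPM in lymph node. The 7 melanoma markers summed to 34.1 CPM (counts per 1000000 UMIs of the same cells) in tumour, with none of the 7 at 0, and to 0.749 CPM in lymph node, with 5 at 0. Macrophage and monocyte markers stood at 131 CPM in tumour, with 1 of 8 at 0, and at 6.18 CPM in lymph node, with 4 at 0. Pmel, Dct and Mlana of the melanoma list and C1qa, C1qb and Lyz2 of the macrophage list were also used to remove cells. The levels of these genes in retained cells were therefore limited by the rule. The part of either list in the results below was not tested.

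Most of the 36 genes had similar levels in cells from tumour and from lymph node, and 1 of them, Odc1, stood far apart. Their UMIs summed to 3724 CPM in tumour and 3422 CPM in lymph node, a ratio of 1.09 (1.07 to 1.10). Without Odc1 the other 35 genes summed to 2931 CPM in tumour and 3339 CPM in lymph node, which is 1.14-fold lower in tumour (1.12 to 1.15). The direction of the sum over all 36 was therefore set by Odc1, and it turned below 1 in 9 of 18 alternatives. Those below 1 include sums that leave out Odc1, which repeat this point. Changes of the minimum UMI count are among the alternatives of both sums and cannot move a sum. The sum over 35 was lower in tumour under each of the 16 alternatives run for it. The range was 1.07-fold without the marker filters to 1.89-fold in cells of similar UMI totals lacking cell cycle UMIs.

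Of the 36 genes, all with at least 50 UMIs over both libraries, 1 was at least 2-fold higher in tumour (Odc1), against 13.2% of the 9976 genes at that depth. Utp20 was the 1 gene at least 2-fold lower, against 7.7% of all genes. A ratio below 1 was found for 22 of the 36, against 41.6% of all genes. The median log2 ratio was -0.17 over the 36 and 0.14 over the 9976 genes. TMM scaling, which centres the bulk of genes, would move each log2 ratio by -0.15. Nearest to the 2-fold line without reaching it was Nop10, 1.75-fold lower in tumour.

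Odc1 (ENSMUSG00000011179; mm10 chromosome 12, 17544794 to 17551505, plus strand) encodes ornithine decarboxylase, the enzyme of the first committed step of polyamine synthesis. It had 13223 UMIs in tumour cells and 891 UMIs in lymph node cells, which is 793 CPM and 83.4 CPM. Its level was 9.51-fold higher in tumour (8.88 to 10.2), with a range of 3.07-fold to 12.9-fold over the alternatives. At 1811 UMIs per cell, an Odc1 UMI was found in 61.4% of tumour cells (58.9 to 63.9) and 10.4% of lymph node cells (9.11 to 11.7). At full depth these shares were 90.05% in tumour and 22.0% in lymph node. The signal was spread over the tumour cells: the 1% of cells with most Odc1 UMIs held 7.53% of them.

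Barcodes of 1 to 100 UMIs, which hold mostly free RNA, had Odc1 at 779 CPM in tumour and 88.4 CPM in lymph node, close to the levels in the cells. The other 35 genes stood at 3916 CPM in these barcodes in tumour and 3827 CPM in lymph node. Both lay above the retained cells (2931 and 3339 CPM), and the level in tumour was not the lower one here. Melanoma markers stood at 1219 CPM in those tumour barcodes and at 34.1 CPM in the retained tumour cells, which is 2.80% of the level. Pmel, Dct and Mlana are among these markers and were also used to remove cells. The part of free RNA in the levels of Odc1 and of the 35 genes was not tested. The 15 cells removed for melanoma markers held Odc1 at 198 CPM, below the retained tumour cells, and the other 35 genes at 5627 CPM, above them. In tumour cells with no UMI of Tyrp1, Pmel, Dct or Mlana, Odc1 was 9.78-fold higher than in lymph node.

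The other polyamine gene did not follow Odc1. Srm (ENSMUSG00000006442; chromosome 4, 148591503 to 148594993, plus strand), which encodes spermidine synthase, had 584 UMIs in tumour and 479 UMIs in lymph node, or 35.03 and 44.8 CPM. Its ratio was 0.781 (0.691 to 0.883).

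The proteins of the box C/D ribonucleoproteins, which guide 2′-O-methylation, summed to 280 CPM in tumour and 343 CPM in lymph node, a ratio of 0.815 (0.780 to 0.851). Fbl, the methyltransferase fibrillarin, had 115 CPM in tumour and 173 CPM in lymph node, and its ratio of 0.666 (0.625 to 0.710) was the farthest from 1 of these 4 genes. The core scaffold proteins Nop56 and Nop58 differed less. Nop56 had 73.9 CPM in tumour and 83.7 CPM in lymph node (ratio 0.883, 0.810 to 0.964), and Nop58 had 66.6 and 57.6 CPM (ratio 1.16, 1.05 to 1.28). Rrp9, which belongs to the U3 particle needed for the first cuts of the precursor, stood at 24.0 CPM in tumour and 29.2 CPM in lymph node.

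Within the box H/ACA group, which carries pseudouridine synthesis and is also part of telomerase, Nop10 made the difference. Nop10 stood at 187 CPM in tumour and 327 CPM in lymph node, a ratio of 0.573 (0.546 to 0.601). Nhp2, another core protein, went the other way, with 138 CPM in tumour and 113 CPM in lymph node (ratio 1.22, 1.13 to 1.30). Dkc1, the pseudouridine synthase dyskerin, had 30.4 CPM in tumour and 39.0 CPM in lymph node (ratio 0.779, 0.683 to 0.889). The intervals of Gar1 and of Nolc1, a nucleolar phosphoprotein that binds these particles, included a ratio of 1. The 5 genes together stood at 456 CPM in tumour and 577 CPM in lymph node.

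RNA polymerase I was measured through its large catalytic subunits and a subunit it shares with RNA polymerase III. Polr1c, the shared subunit, had 61.5 CPM in tumour and 59.7 CPM in lymph node, with a ratio of 1.03 (0.932 to 1.14). Polr1a, with 125 tumour and 110 lymph node UMIs, had a ratio of 0.728 (0.559 to 0.9495). Polr1b was counted 56 times in each library, a ratio of 0.641 (0.434 to 0.945). The intervals of both catalytic subunits lay below 1, at low counts.

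Small subunit factors were mostly lower in tumour cells: 1 of 6, Bysl, had a ratio above 1, and its interval included 1 (1.17, 0.952 to 1.44). Utp20, a scaffold of the small subunit processome, had 55 UMIs in tumour and 76 UMIs in lymph node, or 3.30 and 7.12 CPM. Its ratio was 0.464 (0.322 to 0.665). Wdr43, a processome component with the largest count of the 6 genes, stood at 40.2 CPM in tumour and 49.0 CPM in lymph node (ratio 0.821, 0.731 to 0.922). Nop14, Ltv1, which acts in late maturation and export, and Rrp12 had ratios of 0.742, 0.831 and 0.870.

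Large subunit factors differed little as a group, at 346 CPM in tumour and 347 CPM in lymph node, a ratio of 0.998 (0.957 to 1.04). The 3 proteins of the PeBoW complex, needed for late processing of the large subunit RNA, had ratios of 1.12 for Pes1, 1.11 for Bop1 and 0.791 for Wdr12. Wdr12 was the 1 of these 3 whose interval left out 1 (0.669 to 0.934), and also the 1 of the 11 large subunit genes. Ebna1bp2, at 83.7 CPM in tumour and 79.5 CPM in lymph node, Nip7, at 44.0 and 46.2 CPM, and Mrto4, at 41.2 and 40.6 CPM, had ratios from 0.951 to 1.05. Rrs1, Nop2, Nop16, Noc2l and Noc3l ranged from 0.751 to 1.12.

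The most counted nucleolar genes went opposite ways. Npm1 (ENSMUSG00000057113; chromosome 11, 33152287 to 33163206, minus strand), which encodes the histone and ribosomal protein chaperone nucleophosmin, had 17064 UMIs in tumour and 13642 UMIs in lymph node. This is 1024 CPM in tumour and 1277 CPM in lymph node, a ratio of 0.801 (0.784 to 0.820). Npm1 has processed copies elsewhere in the mouse genome, so its counts depend on how shared reads were assigned. Ncl (ENSMUSG00000026234; chromosome 1, 86344719 to 86359400, minus strand), which encodes nucleolin, had 488 CPM in tumour and 409 CPM in lymph node, a ratio of 1.19 (1.15 to 1.24) that fell below 1 in 5 of 16 alternatives. Npm1, Odc1 and Ncl held 61.9% of the UMIs of the 36 genes in tumour and 51.7% in lymph node. Without these 3 genes the remaining 33 were 1.16-fold lower in tumour (1.14 to 1.19).

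Of the remaining nucleolar proteins, Gnl3 (nucleostemin, a GTPase) had 28.0 CPM in tumour and 39.4 CPM in lymph node, a ratio of 0.709 (0.620 to 0.811). The RNA helicase gene Ddx21 stood at 83.0 CPM in tumour and 81.6 CPM in lymph node, and its interval included a ratio of 1. Mybbp1a had a ratio of 0.831 (0.707 to 0.978).

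**Figure D1:**
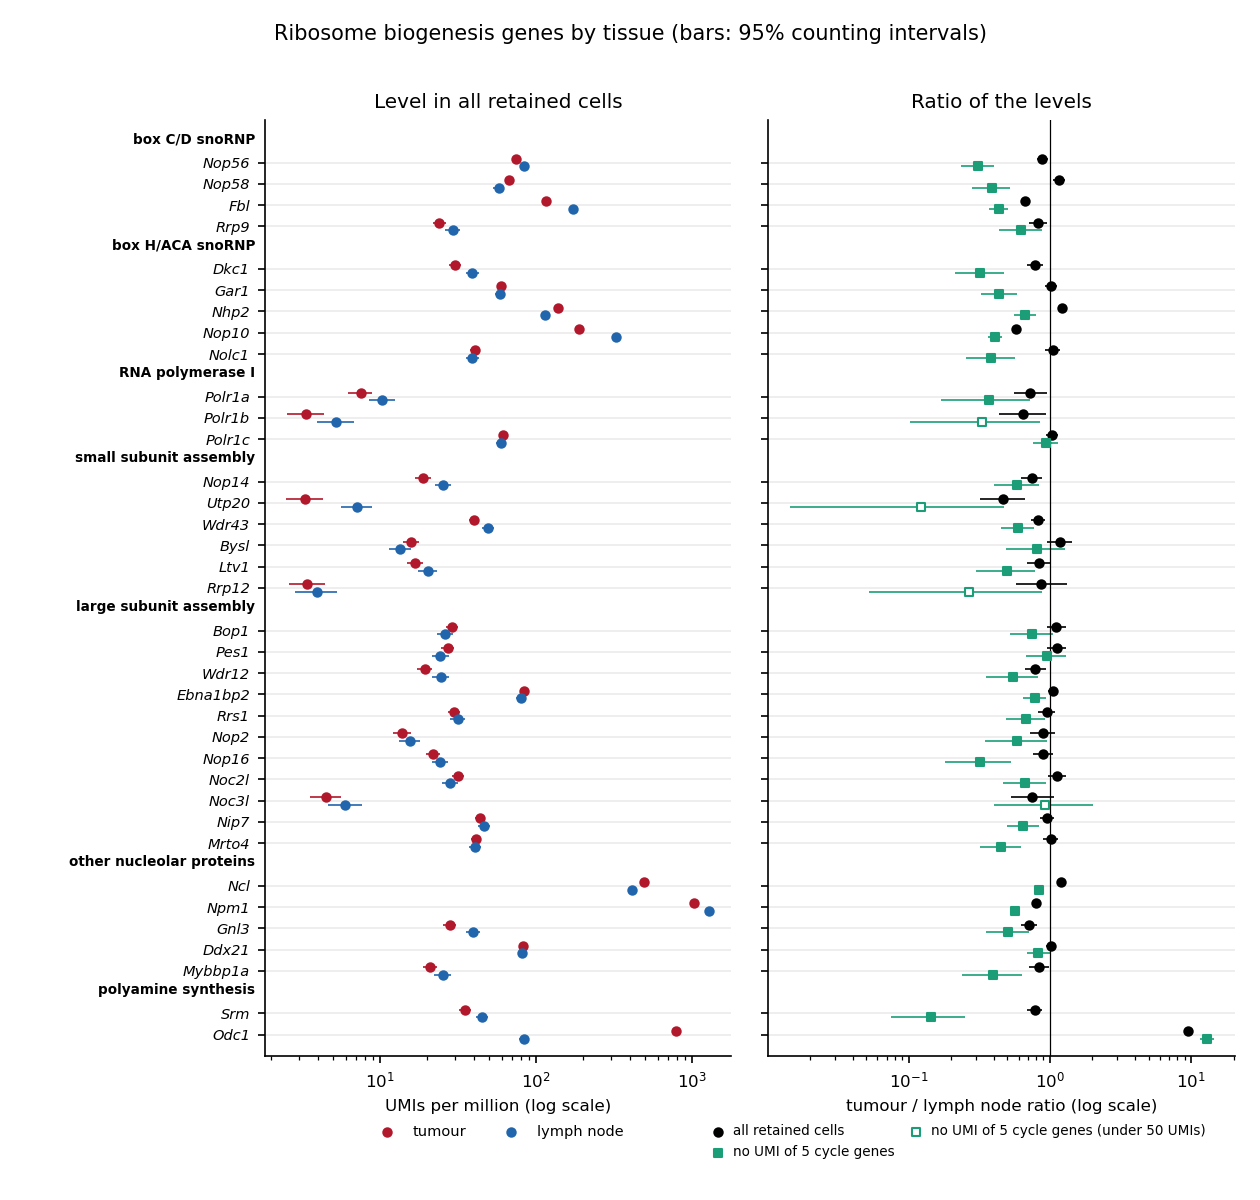
Left, the level of each of the 36 genes in CPM (log axis) in retained cells of tumour and lymph node, grouped by role. Right, the tumour over lymph node ratio (log axis) in all retained cells and in cells without a UMI of 5 cell cycle genes, hollow where the 2 groups held under 50 UMIs together; bars are 95% counting intervals. Odc1 lies at 9.51 and 12.9, and nearly all other genes shift left of 1 in the cells without cell cycle UMIs.

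The tumour library held more dividing cells than the lymph node library, and the 35 genes were higher in dividing cells, so the tissues were also compared in cells without any UMI of the replication genes Mcm2, Mcm5 and Pcna or the mitotic genes Top2a and Ube2c. There were 397 such cells in tumour and 1472 in lymph node. Their 35-gene sum was 1771 CPM in tumour and 3069 CPM in lymph node, 1.73-fold lower in tumour (1.68 to 1.79). A ratio below 1 was found for 31 of the 32 genes with at least 50 UMIs in these cells, against 42.4% of all genes, and 13 of the 32 were at least 2-fold lower, against 7.99%. The exception was Odc1, at 837 CPM in tumour and 64.7 CPM in lymph node, 12.9-fold higher (11.6 to 14.5).

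Srm showed the widest gap among these 32 genes in that direction, with 13 UMIs in tumour and 212 UMIs in lymph node, 7.01-fold lower (4.01 to 13.4). Nop56 had 63 UMIs in tumour and 476 UMIs in lymph node and was 3.25-fold lower (2.49 to 4.30). Nop16, a large subunit factor, was 3.14-fold lower, Dkc1 3.11-fold and Polr1a 2.71-fold. The snoRNP groups stood lowest, with ratios of the summed UMIs of 0.411 for box C/D (0.365 to 0.461) and 0.449 for box H/ACA (0.412 to 0.490). Pes1 and Polr1c stayed near 1, at 0.947 (0.679 to 1.31) and 0.933 (0.764 to 1.13), and the 4 genes under 50 UMIs, Polr1b, Utp20, Rrp12 and Noc3l, had ratios below 1 as well.

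Requiring no cell cycle UMI favours small cells, and cells with few UMIs held the 35 genes at a lower level in both tissues. Split into 3 equal groups by total UMIs, non-cycling tumour cells held 1683, 1826 and 2701 CPM of the 35 genes from the lowest to the highest totals. Lymph node cells, here all retained cells with the dividing ones included, held 2759, 2994 and 3711 CPM. Median totals of these groups were 4804.5, 6954 and 11774 UMIs in tumour and 2578, 4100 and 6300 UMIs in lymph node. The comparison was therefore repeated in cells of 4000 to 8000 UMIs with no cell cycle UMI, 288 in tumour and 617 in lymph node, with medians of 5404 and 5009 UMIs. These medians lay below that of all retained tumour cells (8766 UMIs) and above that of all retained lymph node cells (4100 UMIs). The range thus matched totals, but set smaller tumour cells against larger lymph node cells of their libraries. The 35 genes then stood at 1683 CPM in tumour and 3179 CPM in lymph node, 1.89-fold lower (1.81 to 1.97). A ratio below 1 was found for 28 of the 30 genes with at least 50 UMIs in these cells, all but Odc1 and Pes1, against 34.5% of all genes. Odc1 stood at 799 CPM in tumour and 63.0 CPM in lymph node, 12.7-fold higher (10.9 to 14.8). The part of cell size in the tissue difference was not tested beyond these values.

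Within the tumour, the 35 genes were higher in cells with replication transcripts. Every tumour cell was thinned to 3834 UMIs; 314 cells with at least 2 UMIs of Top2a and Ube2c were called mitotic, 166 others with at least 2 UMIs of Mcm2, Mcm5 and Pcna replicating, and the remaining 977 non-cycling. These classes are ranges of a count and not cell types, and 93, 112 and 359 of their cells lay 1 UMI from a limit. The 35 genes summed to 3404 CPM in mitotic, 3993 CPM in replicating and 2262 CPM in non-cycling cells. Odc1 ran the other way, at 708 CPM in mitotic, 767 CPM in replicating and 862 CPM in non-cycling cells. The whole cells differed as well, with median totals of 17584, 14188.5 and 6953 UMIs in mitotic, replicating and non-cycling cells.

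In replicating cells the 35 genes were 1.77-fold higher than in non-cycling cells (1.72 to 1.81). Of the 32 genes with at least 50 UMIs in these classes, 14 were at least 2-fold higher, against 5.75% of 8351 genes, and 31 had a ratio above 1, against 45.2%. The exception was again Odc1, at a ratio of 0.889 (0.845 to 0.935). Its direction was kept in 10 of 11 alternatives, and its ratio was 1.10 where the classes needed at least 3 full-depth UMIs. The median log2 ratio was 0.96 over the 32 genes and -0.067 over all 8351. Just above the 2-fold line were Noc2l at 2.03 and Mrto4 at 2.02, and just below it Rrs1 at 1.95, Rrp9 and Fbl at 1.94.

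Srm had the highest ratio of the 32. It stood at 63.0 CPM in replicating and 20.8 CPM in non-cycling cells, a ratio of 3.03 (2.43 to 3.78), and its tumour UMIs were concentrated, with 27.9% of them in 1% of the cells. The box C/D scaffold genes came next: Nop56 (ENSMUSG00000027405; chromosome 2, 130274430 to 130279313, plus strand) had 325 UMIs in replicating and 372 UMIs in non-cycling cells, or 127 and 45.2 CPM. Its ratio was 2.81 (2.42 to 3.27), and that of Nop58 was also 2.81 (2.39 to 3.29). The box C/D group as a whole was 2.33-fold higher (2.16 to 2.52), with 445 CPM in replicating and 191 CPM in non-cycling cells.

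Box H/ACA genes were 1.93-fold higher in replicating cells (1.82 to 2.06), led by Nolc1 at 2.56 (2.09 to 3.15) and Gar1 at 2.44 (2.05 to 2.91). Nop10 had the lowest ratio of the 5, at 1.55 (1.40 to 1.70). Large subunit factors were 1.85-fold higher (1.73 to 1.99), with 506 CPM in replicating and 273 CPM in non-cycling cells. Among them Nop16 was at 2.60 (1.96 to 3.45), the RNA methyltransferase gene Nop2 at 2.19 (1.56 to 3.06) and Wdr12 at 2.05 (1.51 to 2.77), while Pes1 was at 1.32 (1.004 to 1.71). Small subunit factors were 1.71-fold higher (1.4996 to 1.94). RNA polymerase I genes were at 1.30 (1.11 to 1.52), with 89.2 CPM in replicating and 68.7 CPM in non-cycling cells, most of it Polr1c at 1.19 (1.004 to 1.42). Of the other nucleolar genes Gnl3 was at 2.25 (1.78 to 2.83) and Mybbp1a at 2.07 (1.53 to 2.79). Npm1 and Ncl, at 1.56 (1.496 to 1.63) and 1.74 (1.63 to 1.85), had narrow intervals.

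Promoter sequences were available from RefSeq (GRCm38.p6) for 30 of the 36 genes, as 250 bases before and 50 after each annotated start. The window before the start is shown for Nop56, the box C/D gene with the most replicating-cell UMIs among those at least 2-fold higher. It is also shown for Nop2 and Nolc1, which hold a searched motif and were also over 2-fold higher in replicating cells. Mybbp1a, Gar1, Nhp2 and Noc2l, and Utp20 at under 50 UMIs, met the same conditions and are not shown. Each stretch is the 100 bases before the start, and capitals mark the E-box CACGTG, the sequence that Myc and its partner Max bind, and CCGGAAG, an ETS-type motif. They lie at chr2:130274312-130274411, chr6:125131783-125131882 and chr19:46075747-46075846, each on the plus strand.
Nop56: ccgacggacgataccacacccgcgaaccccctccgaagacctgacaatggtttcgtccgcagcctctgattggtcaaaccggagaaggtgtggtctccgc
Nop2: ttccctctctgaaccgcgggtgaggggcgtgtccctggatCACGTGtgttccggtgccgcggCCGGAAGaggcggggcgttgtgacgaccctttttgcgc
Nolc1: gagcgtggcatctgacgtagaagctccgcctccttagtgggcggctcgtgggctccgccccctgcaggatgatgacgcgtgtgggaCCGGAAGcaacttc

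Searched on both strands over the whole windows, CACGTG was found in 6 of the 30 genes (Ltv1, Mybbp1a, Nop2, Pes1, Utp20 and Wdr43), which is 20%, against 8.09% of 27025 genes. CCGGAAG was found in 10 of the 30, which is 33.3%, against 9.93%. The 27025 genes are all those with a promoter sequence, whatever their UMIs in these cells, and not the background used for the ratios. The windows of the 30 genes were rich in CG pairs, with a median of 22 against 7 over all genes, and these motifs contain CG, so the shares are descriptions of sequence. The replicating over non-cycling ratios of the E-box genes with at least 50 UMIs ran from 1.32 for Pes1 to 2.19 for Nop2, and were not tested against those of the other genes. Utp20 had 11 and 15 UMIs in these classes. Neither Nop56, Nop58 nor Odc1 held these letters in the window.

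**Figure D2:**
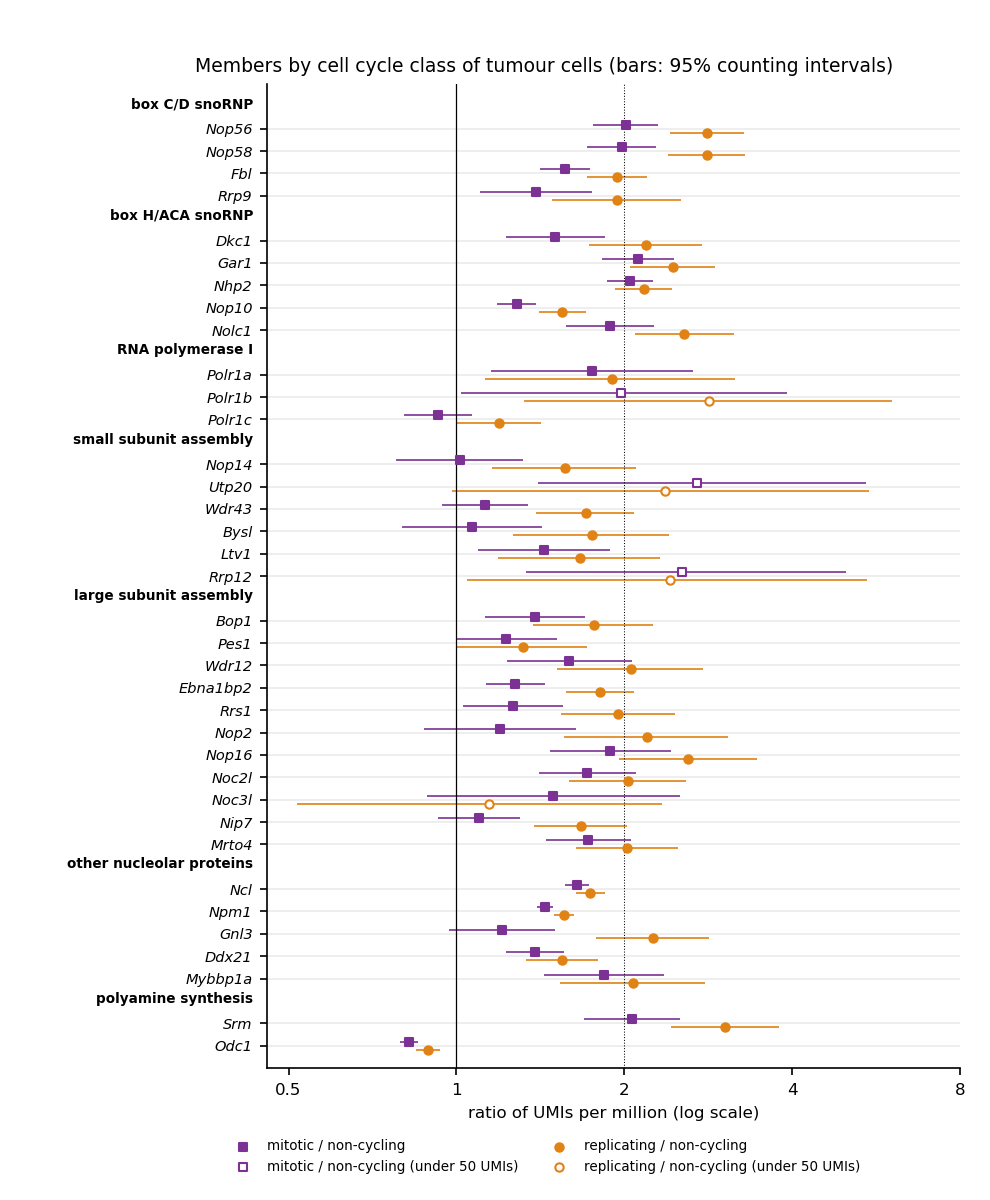
Ratio of the level of each gene in mitotic and in replicating tumour cells over non-cycling tumour cells (log axis; solid line at 1, dotted line at 2), grouped by role; bars are 95% counting intervals and hollow points have under 50 UMIs in the compared classes. Among the filled points of replicating cells Srm, Nop56 and Nop58 lie farthest right, at 3.03, 2.81 and 2.81, and Odc1 lies left of 1 in both.

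Mitotic cells held these genes at a lower level than replicating cells. Their 35-gene level was 1.505-fold that of non-cycling cells (1.47 to 1.53) and 0.852 of that of replicating cells (0.832 to 0.873). Of 33 genes with 50 UMIs, 4 were at least 2-fold higher in mitotic than in non-cycling cells, against 6.71% of 8867 genes: Gar1 at 2.11, Srm at 2.06, Nhp2 at 2.05 and Nop56 at 2.01. A ratio above 1 was found for 31 of the 33, against 47.1%, and the exceptions were Odc1 at 0.822 (0.791 to 0.854) and Polr1c at 0.926 (0.804 to 1.07). Set against replicating cells, 32 of 32 genes with at least 50 UMIs had a ratio below 1, against 49% of 7861 genes, though some of their intervals included 1. Under 50 UMIs, Noc3l, Utp20 and Rrp12 were at 1.30, 1.15 and 1.05 and Polr1b at 0.695, each with an interval that included 1. The gap between these classes was widest for Gnl3 at 0.537, Nop2 at 0.547 and Bysl at 0.610. It was narrow for Ncl at 0.948 (0.893 to 1.006) and Nhp2 at 0.945 (0.849 to 1.05).

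Cell size moved with these classes, and the mitotic difference was small within a narrower range of totals. Among tumour cells of 10000 to 20000 UMIs, 131 mitotic, 87 replicating and 222 non-cycling cells held 2415, 3429 and 2311 CPM of the 35 genes. Their median totals still differed, at 14728, 14270 and 12234 UMIs in that order. Replicating cells were then 1.48-fold above non-cycling cells (1.43 to 1.54), with 30 of the 31 genes that had at least 50 UMIs above 1, against 49.5% of all genes, and 2 (Nop56 and Nop58) at least 2-fold higher, against 3.59%. Mitotic cells were at 1.05 (1.01 to 1.09), with 12 of 31 above 1, against 51.1% of all genes, and 0 at least 2-fold higher, against 6.04%. Nop56 remained higher in replicating cells of this size, at 116 CPM against 51.6 CPM in non-cycling cells. Over all tumour cells of each class, whatever their totals, melanoma markers stood at 31.4 CPM in mitotic, 28.9 CPM in replicating and 37.6 CPM in non-cycling cells.

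Across the 1457 tumour cells the 35 genes followed the replication genes over the low counts and then levelled off. Cells with 0, 1, 2 to 3 and 4 to 7 UMIs of Mcm2, Mcm5 and Pcna held 2268, 3061, 3981 and 4061 CPM of the 35 genes. The 5 cells with 8 or more held 3065 CPM, too few cells to place. With Top2a and Ube2c the level was highest in the middle: 2552, 3031, 3889, 3311 and 2548 CPM in cells with 0, 1, 2 to 3, 4 to 7 and 8 or more UMIs. The 58 cells richest in mitotic transcripts thus held the 35 genes at the level of the 902 cells with none, although their median total was 17665 UMIs against 7312 UMIs.

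Odc1 stood at 858, 790, 704 and 631 CPM in cells with 0, 1, 2 to 3 and 4 to 7 replication UMIs, opposite to the 35 genes. Cell by cell the relations were weak. After thinning to 3834 UMIs the 35-gene count had a Spearman correlation of 0.291 with replication UMIs and 0.155 with mitotic UMIs over 1457 cells of the 1 library, and 0.371 with the full UMI total of the cell. Odc1 and the 35 genes were close to unrelated, at -0.059. Non-cycling tumour cells with 0, 1 to 2, 3 to 5 and 6 or more thinned Odc1 UMIs held 2360, 2125, 2291 and 2365 CPM of the 35 genes.

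**Figure D3:**
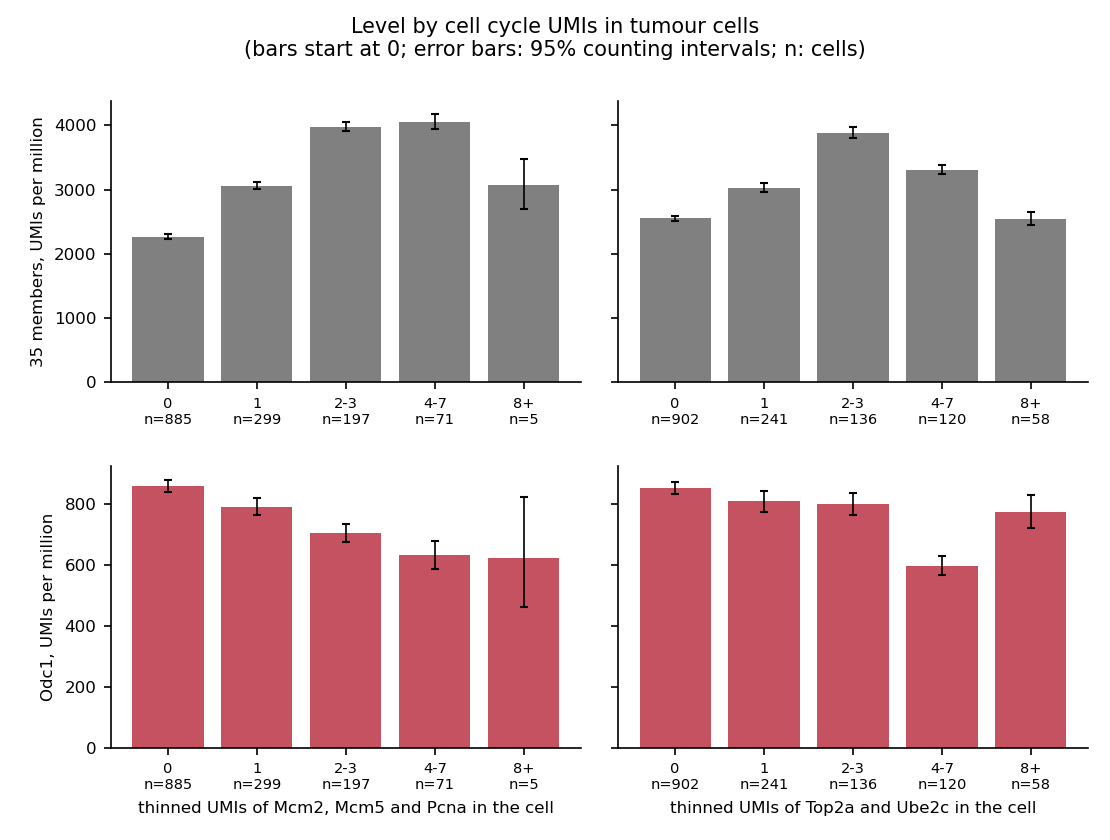
Level of the 35 genes without Odc1 (top) and of Odc1 (bottom), in CPM, in tumour cells binned by thinned UMIs of the replication genes (left) and of the mitotic genes (right); bars start at 0, error bars are 95% counting intervals and n is the number of cells. The 35 genes peak at 4061 CPM with 4 to 7 replication UMIs and at 3889 CPM with 2 to 3 mitotic UMIs, while Odc1 is at 858 CPM where replication UMIs are 0.

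The same classes were formed in both tissues at 1811 UMIs per cell, which gave 187 mitotic, 102 replicating and 1168 non-cycling cells in tumour, and 30, 44 and 2128 in lymph node. Class for class the 35 genes were lower in tumour, with 3265 CPM in tumour and 3821 CPM in lymph node among mitotic cells, 4026 and 4741 CPM among replicating cells, and 2656 and 3263 CPM among non-cycling cells. The ratios were 0.855 (0.814 to 0.897), 0.849 (0.805 to 0.896) and 0.814 (0.801 to 0.827). The classes were not matched for cell size. Median totals in tumour and lymph node were 18362 and 14963.5 UMIs in mitotic cells and 14135.5 and 5843 UMIs in replicating cells. In non-cycling cells they were 7723.5 and 4053 UMIs. The part of cell size in these ratios was not tested. Within each tissue the order of the classes was the same, with replicating over non-cycling ratios of 1.52 (1.48 to 1.56) in tumour and 1.45 (1.38 to 1.53) in lymph node.

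Odc1 had another order in each tissue. In tumour it stood at 669 CPM in mitotic, 745 CPM in replicating and 841 CPM in non-cycling cells. In lymph node it stood at 160, 243 and 73.6 CPM, from 80, 88 and 723 UMIs. Odc1 was thus lower in dividing tumour cells and higher in dividing lymph node cells than in the non-cycling cells of the same tissue. For replicating tumour cells this depended on the class rule, with a ratio of 1.10 where at least 3 full-depth UMIs were needed. The tumour over lymph node ratio of Odc1 was 11.4 (10.6 to 12.3) among non-cycling cells but 3.07 (2.47 to 3.86) among replicating cells.

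**Figure D4:**
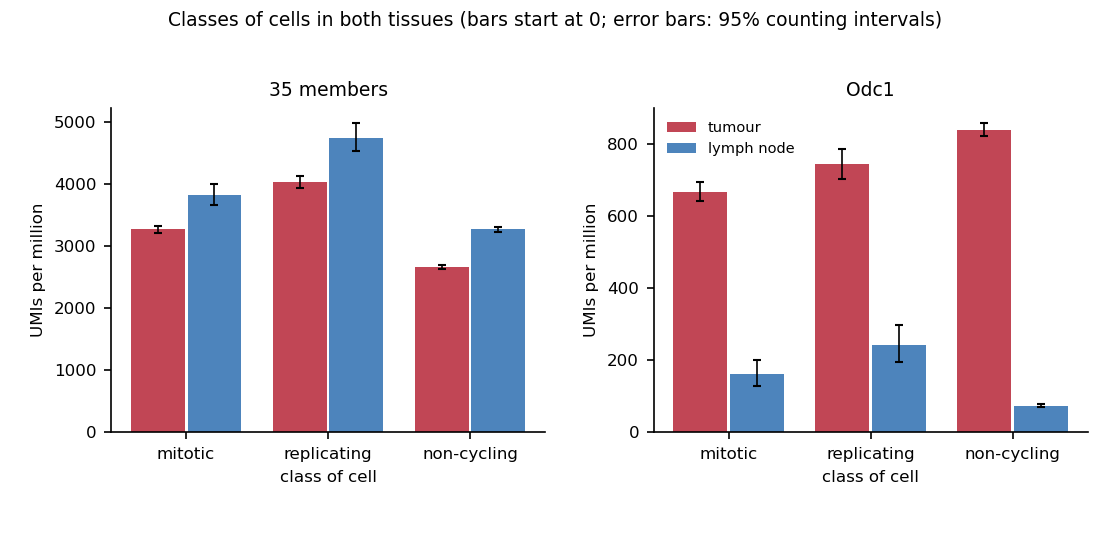
Level of the 35 genes without Odc1 (left) and of Odc1 (right), in CPM, in mitotic, replicating and non-cycling cells of tumour and lymph node; bars start at 0 and error bars are 95% counting intervals. The 35 genes are lower in tumour in each class and highest in replicating cells of both tissues, whereas Odc1 is highest in non-cycling tumour cells (841 CPM) and in replicating lymph node cells (243 CPM).

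Few other genes of the pathway were 2-fold apart between the tissues, where 13.2% of all genes were higher and 7.7% lower by that much. Of 34 further small subunit factors 1 was at least 2-fold higher in tumour (Nol10, 39.7 CPM in tumour and 16.7 CPM in lymph node) and 1 lower (Pdcd11, 14.5 and 30.3 CPM). Of 36 further large subunit factors 0 were higher and 2 lower. They were Mdn1, the large AAA ATPase of large subunit precursors, with a ratio of 0.383 from 104 tumour and 174 lymph node UMIs, and Nle1, with a ratio of 0.490. Of 4 measured host genes of small nucleolar RNAs 1 was at least 2-fold lower, Snhg20 (18.4 CPM in tumour and 37.6 CPM in lymph node). None of the 17 further RNA polymerase I factors, 11 exosome genes and 11 snoRNP assembly genes reached 2-fold in either direction. In replicating over non-cycling tumour cells a ratio above 1 was found for 27 of 32 small subunit factors, 31 of 35 large subunit factors, 11 of 16 RNA polymerase I factors, 11 of 11 exosome genes, 10 of 10 snoRNP assembly genes and 2 of 4 host genes. At least 2-fold higher, in the same order, were 6, 5, 1, 1, 2 and 0 of them. Over all genes 45.2% had a ratio above 1 and 5.75% were at least 2-fold higher. The median log2 ratios, tumour over lymph node, were -0.030, -0.16, -0.16, 0.023, 0.17 and -0.74 in that order.

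Transcripts of the cytosolic ribosomal proteins, which the pathway combines with ribosomal RNA, stood lower in tumour. The median log2 ratio over 81 genes was -0.52, and 3 of them (Rps27, Rps28 and Rps29) were at least 2-fold lower, against 7.7% of all genes. They differed little between classes, with a median log2 ratio of 0.13 in replicating over non-cycling tumour cells and 0 of 81 at least 2-fold higher. With ribosomal protein and mitochondrial UMIs left out of the totals, the 35 genes were 1.42-fold lower in tumour.

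Of 10 measured genes of the Myc network 3 passed 2-fold upwards in tumour and 1 downwards, against 13.2% and 7.7% of all genes, too few genes to set the list apart. The higher ones, Mxd1, Mxi1 and Mxd3, encode proteins that pair with Max and repress E-box genes. Mxd1 had 118 CPM in tumour and 13.0 CPM in lymph node (ratio 9.04), Mxi1 28.9 and 9.27 CPM (ratio 3.11) and Mxd3 31.0 and 10.9 CPM (ratio 2.86). Mxd3 was counted mostly in mitotic cells, with 75.4 CPM there, 16.8 CPM in replicating and 3.65 CPM in non-cycling tumour cells. Mxd1 was lower in dividing cells, at 69.8 CPM in mitotic, 85.7 CPM in replicating and 162 CPM in non-cycling tumour cells. Myc itself, named here after its values were seen, had 510 UMIs in tumour and 389 UMIs in lymph node, or 30.6 and 36.4 CPM, a ratio of 0.840 (0.735 to 0.961). It stood at 28.5 CPM in mitotic, 53.2 CPM in replicating and 25.04 CPM in non-cycling tumour cells.

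Polyamine genes around Odc1 moved in both directions, in a list where 1 gene each way is near the 13.2% and 7.7% of all genes. Of 11, Smox, the spermine oxidase gene, was at least 2-fold higher in tumour (26.5 CPM in tumour and 12.6 CPM in lymph node) and Amd1, which encodes the decarboxylase that supplies spermidine synthesis, at least 2-fold lower (15.7 and 36.4 CPM). Nucleotide supply genes did not differ by 2-fold between tissues (0 of 18). In replicating over non-cycling tumour cells 7 of 18 were at least 2-fold higher, against 5.75% of all genes, and 17 of 18 had a ratio above 1, against 45.2%.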

How the data were processed

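The authors deposited 1 unfiltered matrix of whole-number UMI counts, without normalization, for each of the 10x Chromium 3′ libraries. Cell Ranger and mm10 are named in the submitters' processing notes; version and annotation: not given in the sources used here. Coordinates come from GENCODE on GRCm38, where 27722 of 27998 identifiers were found.

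Cells had a UMI total of at least 10% of the 99th percentile among the 3000 largest barcodes (3834 UMIs in tumour, 1811 in lymph node), 200 genes and at most 10% mitochondrial UMIs. Cells with 20 or more UMIs of Pmel, Dct and Mlana, 3 or more of C1qa, C1qb and Lyz2, or 2 or more of Cd79a and Ms4a1 were removed (18 tumour and 11 lymph node cells). Doublets were kept, and no caller was run.

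Counts were summed over cells and divided by their total (CPM), so larger cells weigh more. Ratios carry exact conditional-binomial 95% intervals and shares Clopper-Pearson intervals, for counting error only; UMIs of 1 cell are not independent. Genes with at least 50 UMIs over the groups compared form the background. Thinning was without replacement (seed 1). Ratios were tested on simulated counts. Thinning was checked on real tumour barcodes, for the thinned total and for no count rising. No test between groups was made. Python 3.11.15, numpy 2.4.6, scipy 1.17.1, pandas 2.3.3 and matplotlib 3.10.9 were used.

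The 36 genes and the lists were chosen with earlier results of these data known. All 36 were named whatever their values; up to 3 genes of each other list were eligible, those with the interval bound farthest from 1, and the 10 genes most like the 35 by Spearman correlation, of which some are not reported here. Symbols without an entry in the gene list, among them Trac and most small nucleolar RNA host genes, were not analysed here. Promoters were matched by symbol; Bop1, Fbl, Npm1, Rrp12, Rrs1 and Srm have none shown or searched.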

Additional observations from a re-analysis of the deposited data

Results flagged for a closer look

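Odc1 was lower in replicating than in non-cycling tumour cells, at a ratio of 0.886 (0.835 to 0.939), and higher in replicating than in non-cycling lymph node cells, at 3.30 (2.61 to 4.12). The same held for mitotic cells, at 0.795 (0.760 to 0.831) in tumour and 2.18 (1.71 to 2.75) in lymph node. The directions were opposite in the single libraries of the tissues, and the difference between them was not tested. In tumour the replicating ratio was 1.10 where the classes needed at least 3 full-depth UMIs. Outside the retained cells, Odc1 stood at 779 CPM in tumour barcodes of 1 to 100 UMIs and at 88.4 CPM in lymph node barcodes of that size.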

How the results depend on the processing

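No paired analysis was possible because each tissue has 1 library. The log2 ratio of all 36 genes, tumour over lymph node, was 0.12. It was 0.0041 with every cell weighing the same, -0.022 after thinning to the lymph node threshold, -0.26 in cells with no cell cycle UMI, 0.043 without the 5% of cells with most UMIs, 0.17 without the marker filters, 0.045 in tumour cells with no UMI of 4 melanoma genes, 0.029 in cells with a Foxp3 UMI, -0.030 under TMM, -0.19 without ribosomal protein and mitochondrial UMIs and 0.043 with the tumour threshold in both libraries. Chosen after seeing the data, it was -0.19 without Odc1, -0.22 also without Npm1 and Ncl, 0.068, -0.063 and -0.017 in non-cycling, replicating and mitotic cells, and -0.39 in cells of 4000 to 8000 UMIs with no cell cycle UMI. Genes at least 2-fold higher numbered 1, but 0 without Odc1 or without all 3 and 2 in replicating and in mitotic cells. Genes at least 2-fold lower numbered 1, but 3 with equal cell weights, 13 with no cell cycle UMI, 0 without the marker filters, 2 without ribosomal protein and mitochondrial UMIs, 3 in replicating and 0 in mitotic cells, and 15 in the cells of 4000 to 8000 UMIs with no cell cycle UMI. Over all genes, 7.7% were at least 2-fold lower in the main setting and 7.99% with no cell cycle UMI. That share was not calculated for the other settings, so their counts have no background beside them.

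Within the tumour the log2 ratio of all 36 genes kept its sign in replicating over non-cycling cells (0.61) and in mitotic over replicating cells (-0.21). In that order it was 0.80 and -0.13 with at least 3 full-depth UMIs, 0.56 and -0.062 with 1 thinned UMI, 0.41 and -0.37 with 4, 0.68 and -0.32 with seed 2, and 0.68 and -0.32 with seed 3. Without the 5% of cells with most UMIs it was 0.52 and -0.30, without Odc1, Npm1 and Ncl 0.95 and -0.36, and in cells of 10000 to 20000 UMIs 0.35 and -0.42. Replicating over non-cycling was 0.66 without ribosomal protein and mitochondrial UMIs, 0.82 without Odc1 and 0.64 without melanoma-marker cells. Mitotic over replicating was -0.27 from thinned counts and -0.26 with equal cell weights. Mitotic over non-cycling (0.40) was 0.67, 0.50 and 0.041 with 3 full-depth, 1 thinned and 4 thinned UMIs, 0.37 with seed 2 and with seed 3, 0.33 from thinned counts, 0.22 without the largest 5% of cells, 0.43 without ribosomal protein and mitochondrial UMIs, 0.59 without Odc1, 0.59 also without Npm1 and Ncl, 0.46 without melanoma-marker cells and -0.076 in cells of 10000 to 20000 UMIs. In these last cells Rrp12 turned to -0.027 in replicating and Srm to -0.80 in mitotic cells over non-cycling cells. Odc1, at -0.17 in replicating over non-cycling cells, turned to 0.13 with at least 3 full-depth UMIs. The cause was not tested. Counts of 50 to 150 UMIs leave wide intervals for Utp20, Polr1b, Rrp12 and Noc3l.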

Other observations

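Across 977 non-cycling tumour cells thinned to 3834 UMIs, the gene outside the list whose counts ran most like the 35 genes, of 2121 compared, was Eif4a1, the RNA helicase of translation initiation (Spearman 0.289). It was followed by Eif5a, the factor that carries the polyamine-derived hypusine (0.271), the chaperone gene Hsp90ab1 (0.265), Mif (0.252) and the nuclear transport GTPase gene Ran (0.248). Rps3a1, Ptma and Hspe1 had values from 0.237 to 0.242. The cells share 1 library and these correlations are weak.

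Some translation and nutrient genes outside the nucleolus were at least 2-fold higher in tumour, as were 13.2% of all genes. Eif4ebp1, a repressor of cap-dependent initiation that is a target of the kinase complex mTORC1, had 62.5 CPM in tumour and 21.8 CPM in lymph node (ratio 2.86, 2.48 to 3.31), and was the 1 of 17 initiation genes at least 2-fold higher. Of 12 genes of amino acid transport and mTORC1, 3 were at least 2-fold higher: Ddit4, a stress-induced inhibitor of mTORC1, at 340 CPM in tumour and 106 CPM in lymph node, Slc3a2, a subunit of amino acid transporters, at 161 and 66.2 CPM, and Mtor at 11.7 and 5.52 CPM. Of 8 genes of nucleolar stress and p53, 2 were at least 2-fold higher and 2 lower, against 13.2% and 7.7% of all genes, too few genes to set the list apart. Cdkn1a, an inhibitor of the cell cycle, stood at 91.7 CPM in tumour and 1.498 CPM in lymph node, while Bbc3 (9.18 and 32.3 CPM) and Sesn1 (14.9 and 41.6 CPM) were the lower ones.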
